A study of Mus musculus with 15 samples.

Results

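Expression was compared between mice in which the prorenin receptor (PRR, encoded by *Atp6ap2*) had been targeted in the rostral ventrolateral medulla (RVLM) and which were then given DOCA-salt, and mice targeted in the same way but studied at baseline. The comparison takes 7 of the 15 RNA libraries of the study, chosen by their labels alone: 3 labelled DOCA-CRE and 4 labelled Baseline-CRE. All 7 mice carried *Atp6ap2* alleles with exon 2 flanked by loxP sites on a C57BL/6J background and had received bilateral injections of an adeno-associated virus (AAV2/2) that expresses Cre and GFP. DOCA-CRE mice had a pellet of 50 mg deoxycorticosterone acetate and drank 0.15 M NaCl, and tissue was taken after 13 days. Baseline-CRE mice had neither, and their tissue was taken 3 weeks after the virus. The labels write the alleles as PRRf/f in DOCA-CRE and PRRf/y in Baseline-CRE mice, and call every mouse female. The mice were 12 to 14 weeks old at the start of the experiments. The promoter driving Cre, CMV, is not restricted to a cell type, so every transduced cell in the injected area could have lost the receptor. RNA came from 1-mm punches that can hold tissue around the RVLM. Baseline-CRE mice formed a separate cohort, so DOCA-salt, cohort, and time after the virus cannot be told apart in any result.

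The RVLM holds the presympathetic neurons, many of them C1 catecholaminergic cells, that set sympathetic outflow to the heart and vessels. PRR binds prorenin and renin and is also an accessory subunit of the vacuolar proton pump (V-ATPase). DOCA is a mineralocorticoid. With salt, it raises arterial pressure with low circulating renin, and corticosteroid receptors that bind such steroids are transcription factors present in neurons and glia.

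The libraries of the 2 groups differed in composition. DOCA-CRE libraries held 27155709, 30504796 and 23544224 counts, and Baseline-CRE libraries 20310085 to 23966836. Mitochondrial ribosomal RNA took 4.80%, 3.32% and 19.1% of counts in DOCA-CRE libraries, against 20.3% to 25.5% in Baseline-CRE libraries, and short noncoding RNA took 2.79%, 4.08% and 3.34%, against 6.03% to 6.63%. Neither share overlapped between groups (exact two-sided permutation p = 0.0286 for each, the smallest that 3 against 4 libraries allow, and 0.05 after adjustment over 7 classes). The number of genes with a count was 26668, 41743 and 42650 in DOCA-CRE libraries, against 27648 to 29549 in Baseline-CRE libraries. *Xist* and Y-linked genes gave a male pattern in DOCA-CRE replicates 1 and 2 and in Baseline-CRE replicates 3 and 4, although all mice are labelled female.

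*Atp6ap2* (chrX:12587801-12617049 in GRCm38) had 90.2, 89.6 and 145 CPM in DOCA-CRE libraries, against 106, 119.9, 123 and 126 CPM in Baseline-CRE libraries. With no library left out the groups did not differ beyond the spread of the libraries (log2 change -0.13, SE 0.14, adjusted p = 0.598). DOCA-WT libraries, from mice given the control virus and DOCA-salt, had 142, 134, 154 and 144 CPM. The library labelled DOCA-CRE replicate 3 thus lay within the DOCA-WT range and above all 4 Baseline-CRE libraries, while DOCA-CRE replicates 1 and 2 lay below both groups. Counts over the whole gene do not isolate the deleted exon. That library was singled out by its *Atp6ap2* level, so no test of *Atp6ap2* is given without it. Over all tested genes the root mean square log2 distance of that library was 0.46 to the other DOCA-CRE libraries, 0.456 to Baseline-CRE, and 0.419 to DOCA-WT libraries. Results are given with and without it where it matters. DOCA-CRE replicates 1 and 2 both had the male pattern, so leaving it out also leaves a DOCA-CRE group of males only.

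**Figure D1:**
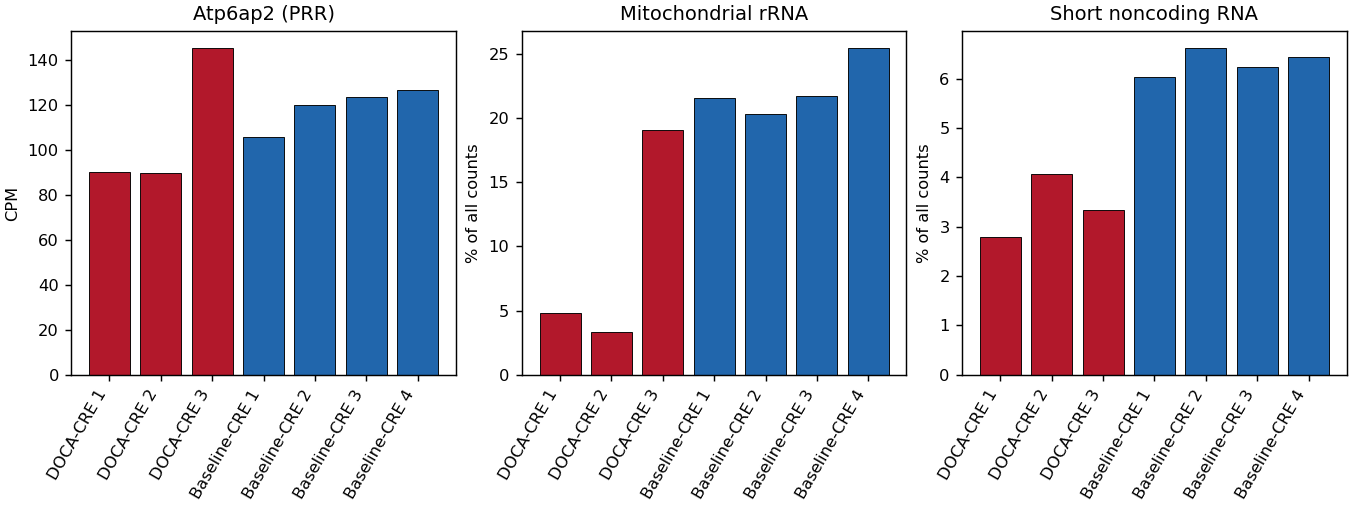
Level of Atp6ap2 (CPM, counts scaled to library size) and shares of mitochondrial ribosomal RNA and short noncoding RNA (percent of all counts) in each of the 3 DOCA-CRE libraries (red) and 4 Baseline-CRE libraries (blue). The library labelled DOCA-CRE replicate 3 has 145 CPM of Atp6ap2 and 19.1% mitochondrial ribosomal RNA, apart from DOCA-CRE replicates 1 and 2 in both, and lies with them in short noncoding RNA.

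The edgeR fit took all 15 libraries, so control-virus libraries also entered its estimate of the spread. Calls needed a 2-fold change or more and a p, adjusted by Benjamini-Hochberg, no higher than 0.05. In that fit, 170 protein-coding genes were called higher and 66 lower in DOCA-CRE than in Baseline-CRE libraries. These were 1.14% and 0.444% of the 14852 genes tested. The adjusted p alone called 399 higher (2.69%) and 560 lower (3.77%), and 3826 genes had an unadjusted p under 0.05. Genes called higher mostly had few reads. Their median, in CPM that are not scaled by gene length, was 2.75 CPM in DOCA-CRE libraries and 118 of 170 were below 5 CPM, whereas genes called lower had a median of 9.49 CPM in Baseline-CRE libraries and 22 of 66 were below 5 CPM. All tested genes had a median of 22.9 CPM in Baseline-CRE libraries, with 3155 of 14852 below 5 CPM. DOCA-CRE and Baseline-CRE ranges were separate for 139 of the 170 genes called higher and for 60 of the 66 called lower, where over all genes DOCA-CRE lay wholly above in 9.38% and wholly below in 11.1%. A fit of the 7 libraries alone called 25 genes higher and 21 lower. The counts of 170 and 66 also depended on single libraries. Leaving out 1 of the 15 at a time gave 43 to 169 genes higher, the fewest without Baseline-CRE replicate 4 (43) or 3 (62), followed by 93 without Baseline-CRE replicate 1 and 104 without Baseline-CRE replicate 2. It gave 29 to 177 genes lower, with 29 without DOCA-CRE replicate 1 or without Baseline-CRE replicate 4.

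Without the library labelled DOCA-CRE replicate 3, 163 genes were called higher (1.10%) and 177 lower (1.19%), and the adjusted p alone called 635 higher (4.28%) and 949 lower (6.39%). Of the 163 and 177, 108 of the higher and 59 of the lower genes were also called with that library kept in the fit. That library was not used to choose the 163 and 177 genes, but the Baseline-CRE libraries were, so the following counts are a description. It lay on the DOCA-CRE side of the Baseline-CRE mean for 156 of the 163 and 158 of the 177, where 50.5% and 49.5% of all tested genes lay on those sides. Its median position, on a scale with the Baseline-CRE mean at 0 and the mean of DOCA-CRE replicates 1 and 2 at 1, was 0.772 for the higher and 0.4 for the lower genes. It was thus nearer to the baseline for the lower than for the higher genes.

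**Figure D2:**
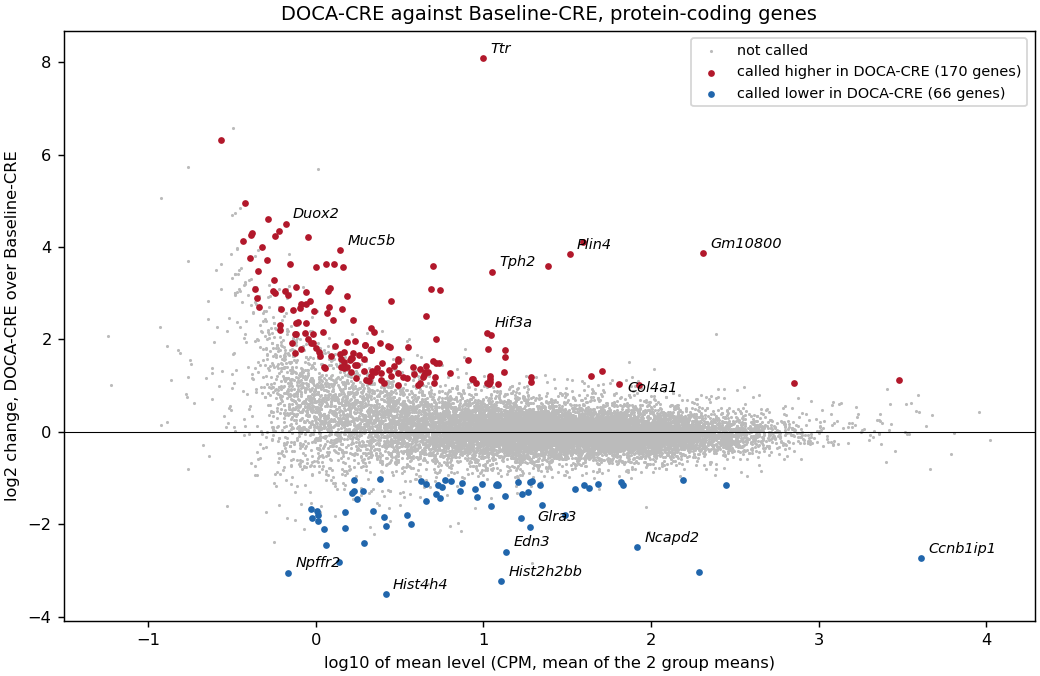
Log2 change in DOCA-CRE over Baseline-CRE libraries (vertical axis) against the mean level (log10 of CPM, horizontal axis) for each tested protein-coding gene. Red points are the 170 genes called higher, blue points the 66 called lower, and gray points were not called. Most red points lie at low levels, and Ttr, at the top, rests on 1 library.

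Several genes that corticosteroids induce were higher in DOCA-CRE libraries. *Plin4*, which encodes perilipin 4, a coat protein of lipid droplets, had 75.2, 64 and 44.9 CPM in DOCA-CRE libraries, against 3.94, 4.22, 3.51 and 5.54 CPM in Baseline-CRE libraries. The lowest DOCA-CRE value lay far above the highest Baseline-CRE value, and the means were 61.4 ± 15.3 CPM in DOCA-CRE and 4.3 ± 0.873 CPM in Baseline-CRE libraries (SD, n = 3 and n = 4; log2 change 3.84, SE 0.65, adjusted p = 0.00628). *Zbtb16* encodes the transcription factor PLZF. It had 81.1, 82.3 and 54.5 CPM in DOCA-CRE and 28.4, 28.8, 30.9 and 29.2 CPM in Baseline-CRE libraries, with separate ranges (log2 change 1.31, SE 0.22, adjusted p = 0.00628). *Arrdc2*, an arrestin domain gene, had 33.8, 24.9 and 21.4 CPM in DOCA-CRE libraries, against 11.2, 11.2, 11.6 and 12.8 CPM in Baseline-CRE libraries (log2 change 1.19, adjusted p = 0.0142). All 3 were lower in the library labelled DOCA-CRE replicate 3 than in the other DOCA-CRE libraries and still above every Baseline-CRE library. *Sult1a1*, which encodes a phenol sulfotransferase, had 6.89, 11.5 and 6.66 CPM in DOCA-CRE and 1.4, 2.11, 2.89 and 1.87 CPM in Baseline-CRE libraries (log2 change 2.01, adjusted p = 0.0314). *Fkbp5*, which encodes a co-chaperone of the glucocorticoid receptor, had 55.3, 91.4 and 36.7 CPM in DOCA-CRE libraries, against 27.4, 15.3, 37.3 and 26.7 CPM in Baseline-CRE libraries (log2 change 1.20, adjusted p = 0.0464). For *Fkbp5* the groups overlapped, since the library labelled DOCA-CRE replicate 3 lay below the highest Baseline-CRE library.

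The glucocorticoid receptor gene itself moved the other way. *Nr3c1* had 72.9, 71 and 71.8 CPM in DOCA-CRE libraries, against 129, 125, 106 and 110.3 CPM in Baseline-CRE libraries, and the DOCA-CRE libraries were nearly equal to each other and below all Baseline-CRE libraries (log2 change -0.71, SE 0.09, adjusted p = 0.0018). The mineralocorticoid receptor gene *Nr3c2* had 44.3, 76.1 and 62.7 CPM in DOCA-CRE and 95, 55.4, 83.6 and 80.9 CPM in Baseline-CRE libraries and did not pass (log2 change -0.37, adjusted p = 0.229). Of 22 tested genes of a list of steroid receptors and steroid-responsive genes, 5 rose and 1 fell, with a median log2 change of 0.46, where 2.69% of all genes rose, 3.77% fell, and the median was 0.02. The remaining members did not pass. *Sgk1*, a kinase that mineralocorticoids induce in epithelia, was above every Baseline-CRE library in each DOCA-CRE library, with 106, 139 and 98.3 CPM in DOCA-CRE and 34.6, 56.7, 46.4 and 74.9 CPM in Baseline-CRE libraries (log2 change 1.11, adjusted p = 0.116). *Tsc22d3*, which encodes the glucocorticoid-induced leucine zipper, had 123, 176 and 126 CPM in DOCA-CRE libraries, against 109, 109, 124 and 95.6 CPM in Baseline-CRE libraries (log2 change 0.37, adjusted p = 0.182). Without the library labelled DOCA-CRE replicate 3, 7 rose and 1 fell, where 4.28% of all genes rose and 6.39% fell. The genes added were *Fam107a* (log2 change 1.03, adjusted p = 0.0353) and *Cdkn1a*, which encodes the cell cycle inhibitor p21 (log2 change 1.54, adjusted p = 0.0396). With a sex term as well, 5 list members rose and 1 fell, where 659 and 986 of all 14852 genes did. *Arrdc2* was lost without DOCA-CRE replicate 1 (adjusted p = 0.0655). *Zbtb16* and *Nr3c1* passed under all 28 alternative fits, and *Plin4* under all except limma voom (adjusted p = 0.0825). *Sult1a1* was lost under 7 of 28 alternatives, 6 of which leave out DOCA-CRE replicate 1 or 2 or any 1 Baseline-CRE library (adjusted p = 0.0553 to 0.085), and *Fkbp5* under 14 of 28, with the same libraries among them (adjusted p = 0.0543 to 0.162).

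*Plin4* lies at chr17:56100591-56109803, *Zbtb16* at chr9:48654297-48836222 and *Sult1a1* at chr7:126672865-126676432. The 250 bases before a gene's start, from RefSeq on GRCm38.p6, were searched on both strands for AGAACA, the half-site that glucocorticoid and mineralocorticoid receptors share. A sequence was found for 12 of the 22 tested list members, and 1 of them, *Sult1a1*, held a match, where 16.1% of 32851 promoters did. *Plin4* and *Fkbp5* held none, which says only that these letters are absent from this window. The *Sult1a1* promoter is shown as the only member with a match, with both matches (AGAACA and its reverse complement) in capitals, at chr7:126676419-126676668 on the minus strand.
Sult1a1: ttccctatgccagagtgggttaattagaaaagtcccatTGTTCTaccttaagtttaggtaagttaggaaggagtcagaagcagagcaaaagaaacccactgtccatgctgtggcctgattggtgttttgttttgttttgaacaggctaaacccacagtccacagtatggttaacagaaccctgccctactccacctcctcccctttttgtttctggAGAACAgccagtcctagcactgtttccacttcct

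**Figure D3:**
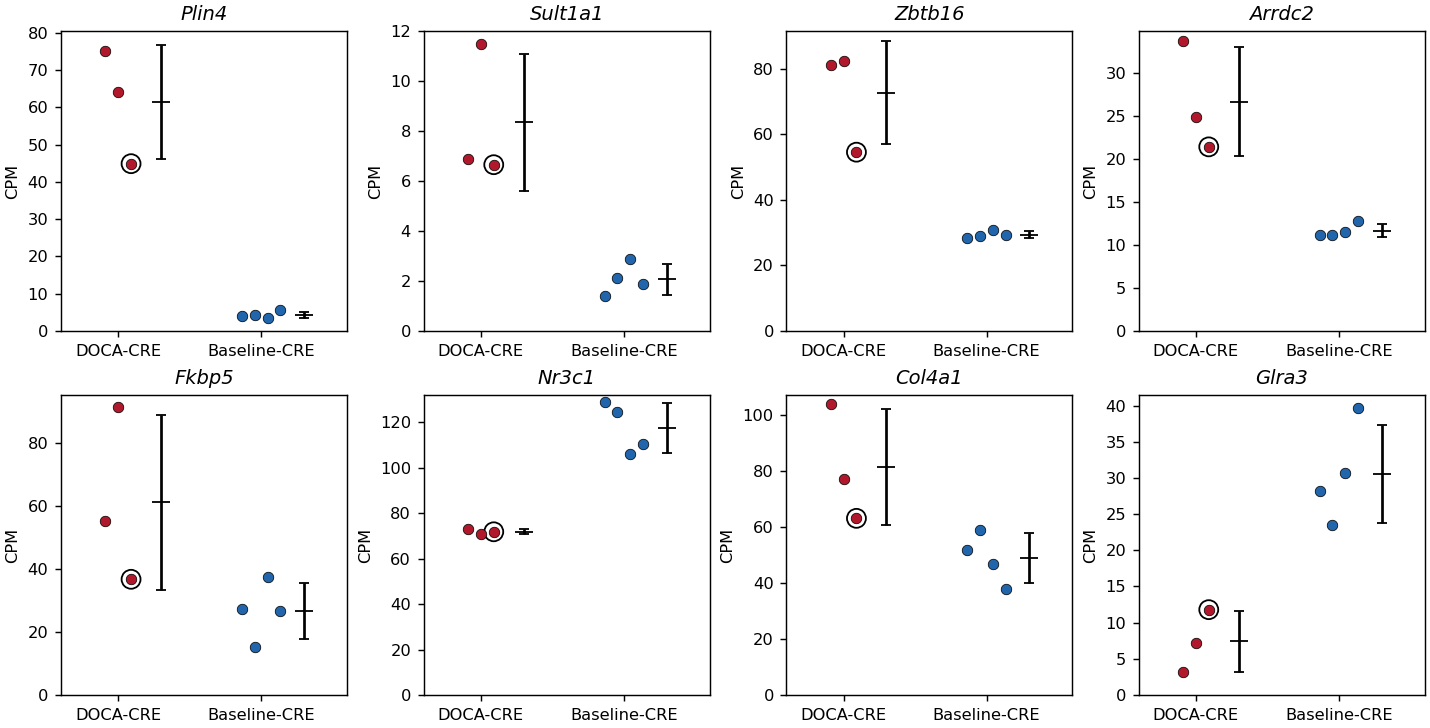
Level (CPM) of 8 genes in each DOCA-CRE library (red, left) and Baseline-CRE library (blue, right), with the mean and SD at the side and a ring around the library labelled DOCA-CRE replicate 3. Plin4, Sult1a1, Zbtb16 and Arrdc2 lie higher in all DOCA-CRE libraries, Nr3c1 and Glra3 lie lower in all of them, and Fkbp5 overlaps between the groups.

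Replication-dependent histone genes, whose mRNAs end in a stem-loop in place of a poly(A) tail and are made mainly in S phase, were lower in DOCA-CRE libraries. Of 39 tested, 0 rose and 24 fell (61.5%, where 3.77% of all genes fell), and 36 had a negative sign, with a median log2 change of -1.43 where all genes had 0.02. *Hist4h4* (chr6:136801553-136804415), which encodes histone H4, had 0.492, 0.225 and 0.564 CPM in DOCA-CRE libraries, against 4.45, 4.86, 5.17 and 4.76 CPM in Baseline-CRE libraries (log2 change -3.51, SE 0.33, adjusted p = 7.85e-05). *Hist1h4d*, another H4 gene, had 9.64, 13.2 and 18.2 CPM in DOCA-CRE and 47.7, 47, 47.8 and 47.9 CPM in Baseline-CRE libraries (log2 change -1.80, adjusted p = 0.00061). *Hist2h2bb*, which encodes an H2B histone, had 2.09, 0.451 and 5.08 CPM in DOCA-CRE libraries, against 18.6, 26.5, 22.5 and 24.3 CPM in Baseline-CRE libraries (log2 change -3.24, adjusted p = 0.00588). The DOCA-CRE ranges lay below the Baseline-CRE ranges in all 3. *Hist1h4n* fell by 2.83 (adjusted p = 0.0018), *Hist1h4f* by 2.44, *Hist1h4m* by 2.41 and *Hist1h2bb* by 2.10 on the log2 scale. Histone genes share sequence, and 87.5% of the 31-base words of *Hist1h4n* and 91.7% of those of *Hist1h4m* occur in other genes, against 11.5% in *Hist4h4*, so that the split of reads among close copies is uncertain. The list's summed level was 178.4, 208.6 and 215.5 CPM in DOCA-CRE and 346.6, 391.6, 394.4 and 357.7 CPM in Baseline-CRE libraries, with no overlap. It moved with the share of short noncoding RNA, whose part was not tested. Without the library labelled DOCA-CRE replicate 3, 22 members fell, where 6.39% of all genes did. *Hist4h4*, *Hist1h4d*, *Hist2h2bb* and *Hist1h4n* passed under all 28 alternatives, and *Hist1h4f* was lost without DOCA-CRE replicate 1 or Baseline-CRE replicate 4 (adjusted p = 0.0544 to 0.0629). Of the 66 genes called lower, 23 were members of this list.

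TATAAA on the sense strand was present in the 250 bases before the start of 18 of the 34 tested histone genes with a RefSeq sequence (52.9%) and in 7.59% of all promoters, and CCAAT on either strand in 25 of 34 (73.5%) and 33.8%. Among the 22 of these that fell, TATAAA was present in 13 (59.1%) and CCAAT in 16 (72.7%). The 150 bases before the start of *Hist4h4* and *Hist1h4f* held neither motif. The 150 bases before the start of 2 members with separate ranges are shown with both motifs in capitals (CCAAT also as its reverse complement), the one with CCAAT alone and the other with both. They were chosen for their matches, and the TATAAA of *Hist1h2bb* begins 10 bases before the start. *Hist2h2bb* is read at chr3:96269550-96269699 and *Hist1h2bb* at chr13:23746584-23746733, both on the plus strand.
Hist2h2bb: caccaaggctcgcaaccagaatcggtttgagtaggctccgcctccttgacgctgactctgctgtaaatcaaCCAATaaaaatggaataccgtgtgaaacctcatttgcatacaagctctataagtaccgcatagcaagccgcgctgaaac
Hist1h2bb: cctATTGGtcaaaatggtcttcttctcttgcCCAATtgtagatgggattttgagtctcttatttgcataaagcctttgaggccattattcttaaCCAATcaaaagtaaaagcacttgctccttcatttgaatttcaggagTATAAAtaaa

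Several classes of small noncoding RNA fell, and snoRNAs had a lower median change than any list of protein-coding genes described here. When all 18756 genes above the level filter were fitted, whatever their biotype, 305 were higher (1.63%) and 283 lower (1.51%). Counts from this fit need a 2-fold change as well as the adjusted p, unlike those of the protein-coding lists. Small nucleolar RNAs (snoRNAs), which guide methylation (C/D box) or pseudouridylation (H/ACA box) of ribosomal RNA, made up 124 of the lower genes. Of 208 snoRNAs tested, 0 were higher and 124 lower (59.6%), with a median log2 change of -3.21. For 121 of the 124, every DOCA-CRE library lay below every Baseline-CRE library. This was counted among called genes only, with no count over all biotypes to set beside it. Without the library labelled DOCA-CRE replicate 3 the number lower was 136. Calls over all biotypes, in either direction, then went from 588 to 710. Both kinds fell: 29 of 49 named C/D box and 19 of 31 named H/ACA box snoRNAs. Some entries repeat the same reads, so these counts are not all of separate genes. Both *Snora16a* entries had equal levels in every library, as had both *Rnu3a* entries. Small Cajal body RNAs, which guide modification of spliceosomal RNAs, were lower in 11 of 15 (median -3.46), genes annotated as small nuclear RNA in 17 of 31 (median -3.83) and ribosomal RNA genes in 10 of 25, with 0 higher in each class. Other small RNA classes followed in part or not at all. Of 258 microRNA genes, 1 was higher and 17 lower (6.59%, median 0.01). Of 55 genes that Gencode classes as miscellaneous RNA, 3 were higher and 14 lower (25.5%, median -0.55). Of 20 mitochondrial tRNA genes, 3 were higher (*mt-Tq*, *mt-Ta* and *mt-Tn*) and 0 lower, or 3 and 6 without the library labelled DOCA-CRE replicate 3.

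*Snord15a* had 0.338, 0.291 and 2.08 CPM in DOCA-CRE libraries, against 19.8, 21.4, 19.5 and 33.5 CPM in Baseline-CRE libraries (log2 change -4.81, adjusted p = 9.86e-05). *Snord17* had 2.55, 1.05 and 7.33 CPM in DOCA-CRE libraries, against 41.1, 47.8, 48 and 58.9 CPM in Baseline-CRE libraries (log2 change -3.79, adjusted p = 0.000152). *Snora21* had 0.277, 0.233 and 1.92 CPM in DOCA-CRE libraries, against 15, 15.8, 24.7 and 41.5 CPM in Baseline-CRE libraries (log2 change -5.03, adjusted p = 0.000152). In all 3 the library labelled DOCA-CRE replicate 3 was the highest of its group and still below every Baseline-CRE library. These are shown as the Snord and Snora genes with the smallest adjusted p, from Gencode vM21 on GRCm38. Capitals mark the C box (TGATGA) and D box (CTGA) of the C/D box RNAs and the ACA near the end of the H/ACA box RNA. *Snord15a* lies at chr7:99482785-99482932 within the span of *Rps3*, *Snord17* at chr2:144265979-144266216 and *Snora21* at chr11:97781639-97781775, each on the minus strand.
Snord15a: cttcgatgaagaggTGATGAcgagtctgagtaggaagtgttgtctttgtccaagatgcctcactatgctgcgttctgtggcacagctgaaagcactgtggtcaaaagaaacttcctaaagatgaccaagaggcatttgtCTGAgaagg
Snord17: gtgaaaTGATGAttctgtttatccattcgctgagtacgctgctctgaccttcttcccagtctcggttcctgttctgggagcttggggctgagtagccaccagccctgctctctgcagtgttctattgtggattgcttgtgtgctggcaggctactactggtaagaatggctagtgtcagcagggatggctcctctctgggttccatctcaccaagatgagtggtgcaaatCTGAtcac
Snora21: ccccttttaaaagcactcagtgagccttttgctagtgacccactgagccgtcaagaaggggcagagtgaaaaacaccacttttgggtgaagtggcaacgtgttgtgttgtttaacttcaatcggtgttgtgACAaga

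The abundant structured RNAs moved in the same direction. *Rn7sk*, the 7SK RNA that holds the elongation factor P-TEFb inactive, had 428, 187 and 645 CPM in DOCA-CRE libraries, against 3861, 4984, 4009 and 4315 CPM in Baseline-CRE libraries (log2 change -3.35, adjusted p = 5.61e-05). *Rpph1*, the RNA of ribonuclease P, had 1084, 491 and 830.1 CPM in DOCA-CRE libraries, against 4766, 6256, 5280 and 5083 CPM in Baseline-CRE libraries (log2 change -2.74, adjusted p = 6.67e-05). *Bc1*, a dendritic RNA of neurons, had 1235, 458 and 1273 CPM in DOCA-CRE libraries, against 3165, 4464, 4784 and 6830 CPM in Baseline-CRE libraries (log2 change -2.28, adjusted p = 0.0035). The groups were separate in all 3. Some noncoding genes rose instead. *Neat1*, the scaffold RNA of paraspeckles, had 312, 128 and 166 CPM in DOCA-CRE libraries, against 96.5, 79.8, 68.2 and 70.2 CPM in Baseline-CRE libraries (log2 change 1.36, adjusted p = 0.00957). Of 916 loci of the TEC class, for which Gencode awaits experimental support, 48 were higher (5.24%) and 0 lower. In 47 of the 48 the DOCA-CRE range lay above, again counted among called loci only. In this fit 196 of 14852 protein-coding genes were higher and 69 lower, or 161 and 178 without the library labelled DOCA-CRE replicate 3. Among 1504 long noncoding RNAs, 45 were higher and 16 lower, or 30 and 28 without that library, where TEC loci had 44 and 5. Of the 16, *Gm28967* had the same levels as the small RNA *Scarna10*, and *Rmrp* nearly those of a ribozyme entry of that name. These noncoding classes moved with the share of short noncoding RNA and the cohort named above, whose part in the result was not tested. *Gm23935*, annotated as a microRNA gene and counted in that share, had 18540, 32400 and 27500 CPM in DOCA-CRE libraries. It had 51530 to 56050 CPM in Baseline-CRE libraries (log2 change -1.04, adjusted p = 0.00707). This 1 entry made up much of that share, which is thus no measure of snoRNAs.

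Of the 66 protein-coding genes called lower, 4 hold a short noncoding RNA gene within their exons (6.06%), as do 4 of the 170 called higher (2.35%) and 323 of all tested genes (2.17%). *Ccnb1ip1*, a meiotic ubiquitin ligase whose exons contain *Rpph1*, had 1446, 635 and 1125 CPM in DOCA-CRE libraries, against 6413, 8313, 7065 and 6761 CPM in Baseline-CRE libraries (log2 change -2.74, adjusted p = 0.000229). *Ncapd2*, a condensin subunit whose exons contain *Scarna10*, had 23.3, 20.6 and 31.3 CPM in DOCA-CRE and 115, 166, 129 and 152 CPM in Baseline-CRE libraries (log2 change -2.49, SE 0.18, adjusted p = 2.98e-06). *Scarna10* had 1.72, 2.15 and 10.6 CPM in DOCA-CRE libraries, against 75.9, 113, 86.7 and 106 CPM in Baseline-CRE libraries (log2 change -4.35, adjusted p = 0.000214). *Rps3*, a ribosomal protein gene with *Snord15b* in its exons, had 135, 150 and 235 CPM in DOCA-CRE libraries, against 324, 341, 373 and 497 CPM in Baseline-CRE libraries (log2 change -1.15, adjusted p = 0.00628). The fourth is *Hist1h2ac*, of the histone list. Reads of host gene and small RNA in a shared exon cannot be told apart in these counts. Of 83 cytosolic ribosomal protein genes, 0 rose and 4 fell (4.82%, median -0.21), near the 3.77% of all genes that fell. Without the library labelled DOCA-CRE replicate 3, 22 of them fell, where 6.39% of all genes did.

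Some receptors for GABA, glycine and glutamate were lower in DOCA-CRE libraries. Of 46 tested GABA, glycine and glutamate receptor genes, 0 rose and 9 fell (19.6%, where 3.77% of all genes fell), with a median of -0.25. *Glra3*, which encodes a glycine receptor alpha subunit, had 3.24, 7.14 and 11.8 CPM in DOCA-CRE libraries, against 28.2, 23.4, 30.7 and 39.6 CPM in Baseline-CRE libraries, so that the groups were well apart (log2 change -2.06, SE 0.38, adjusted p = 0.0094), and passed under all 28 alternatives. *Grin3a*, an NMDA receptor subunit gene, had 46.4, 62.4 and 68 CPM in DOCA-CRE libraries, against 97.5, 84.4, 87.6 and 102 CPM in Baseline-CRE libraries (log2 change -0.66, adjusted p = 0.0126). *Grm3*, which encodes a metabotropic glutamate receptor, had 50.6, 44.6 and 51.1 CPM in DOCA-CRE and 70, 93.8, 71.7 and 67.2 CPM in Baseline-CRE libraries (log2 change -0.63, adjusted p = 0.0182). The DOCA-CRE range lay below in each of these 3. Others that fell were *Gabrg3* (-1.06), *Gabra3* (-0.54), *Grik2* (-0.62) and *Glrb* (-0.44, all log2 changes). Without the library labelled DOCA-CRE replicate 3, 13 fell and 0 rose, where 6.39% of all genes fell. *Grin3a* was lost only when the fit used the 7 libraries alone (adjusted p = 0.0592). *Gabrg3*, *Gabra3*, *Grik2* and *Glrb* were each lost without DOCA-CRE replicate 1 and without Baseline-CRE replicate 3 or 4, *Gabra3* and *Grik2* without DOCA-CRE replicate 2, *Grik2* and *Glrb* without Baseline-CRE replicate 1, and *Glrb* without Baseline-CRE replicate 2 (adjusted p = 0.0514 to 0.161). Pan-neuronal markers did not pass in either direction (0 of 15, median 0.05).

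Receptors for peptides were not tested as a list. Of those named here, all but *Npffr2* were chosen after their values were seen, as was *Reln*, so they say nothing of such receptors as a group. *Npffr2*, a receptor for neuropeptide FF, had 0.041, 0.263 and 0.113 CPM in DOCA-CRE libraries, against 1.27, 1.02, 0.862 and 1.79 CPM in Baseline-CRE libraries (log2 change -3.05, adjusted p = 0.0165), and the call was lost without DOCA-CRE replicate 1 or Baseline-CRE replicate 4 (adjusted p = 0.054 to 0.0544). *Oprm1*, the mu opioid receptor gene, had 8.41, 7.93 and 17.3 CPM in DOCA-CRE and 28.8, 19.2, 41.5 and 43.8 CPM in Baseline-CRE libraries (log2 change -1.58, SE 0.31, adjusted p = 0.0104), lost without DOCA-CRE replicate 1 (adjusted p = 0.0518). *Npy2r*, a neuropeptide Y receptor gene, had 3.2, 3.76 and 3.44 CPM in DOCA-CRE libraries, against 7.57, 4.79, 9.61 and 9.67 CPM in Baseline-CRE libraries (log2 change -1.19, adjusted p = 0.00979). All DOCA-CRE libraries lay below all Baseline-CRE libraries for each. *Calcr*, the calcitonin receptor gene (log2 change -1.74, adjusted p = 0.0426), and *Hcrtr2*, an orexin receptor gene (log2 change -1.25, adjusted p = 0.05), were lower too. *Calcr* was lost without DOCA-CRE replicate 1, the library labelled DOCA-CRE replicate 3 or Baseline-CRE replicate 1, 2 or 4 (adjusted p = 0.0642 to 0.143), and *Hcrtr2* without DOCA-CRE replicate 1 or 2 or Baseline-CRE replicate 1, 3 or 4 (adjusted p = 0.0808 to 0.183). *Ntsr2*, a neurotensin receptor gene, was higher (log2 change 0.37, adjusted p = 0.0479), a call lost without DOCA-CRE replicate 1 or 2 or Baseline-CRE replicate 1, 3 or 4 (adjusted p = 0.0696 to 0.136). *Reln*, which encodes the secreted guidance protein reelin, had 37.3, 36.4 and 53.3 CPM in DOCA-CRE and 99.9, 70.2, 102 and 102 CPM in Baseline-CRE libraries (log2 change -1.15, SE 0.22, adjusted p = 0.0104) and passed under all 28 alternatives. *Edn3*, which encodes endothelin 3, had 3.16, 4.02 and 4.51 CPM in DOCA-CRE libraries, against 8.78, 5.88, 47.6 and 31.8 CPM in Baseline-CRE libraries (log2 change -2.60, adjusted p = 0.0202). The Baseline-CRE libraries split widely for *Edn3*, with replicates 3 and 4 high, and the call was lost without either of these or without DOCA-CRE replicate 1 (adjusted p = 0.0582 to 0.0813). Baseline-CRE replicates 3 and 4 had the male pattern, as did DOCA-CRE replicates 1 and 2. The *Edn3* call passed with a sex term.

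Several collagens were higher in DOCA-CRE libraries. Of 43 tested, 7 rose (16.3%), 1 fell (2.33%), and 40 had a positive sign (median log2 change 0.66), where 2.69% of all genes rose and 3.77% fell. The chains of type IV collagen, the network of basement membranes, made up 4 of the 7. *Col4a1* had 104, 77.1 and 63.1 CPM in DOCA-CRE libraries, against 52, 59, 46.7 and 37.8 CPM in Baseline-CRE libraries (log2 change 0.74, adjusted p = 0.0273). *Col4a2* had 137, 93.3 and 73.2 CPM in DOCA-CRE and 56, 50.2, 52.7 and 44.5 CPM in Baseline-CRE libraries (log2 change 0.99, SE 0.21, adjusted p = 0.016). *Col4a5* had 17.5, 16.2 and 14.9 CPM in DOCA-CRE libraries, against 9.93, 8.05, 7.7 and 9.59 CPM in Baseline-CRE libraries (log2 change 0.88, adjusted p = 0.0141). The ranges were separate for these chains, with DOCA-CRE replicate 1 highest. *Col4a6* (1.42), *Col5a1* (1.76), *Col6a6* (2.42) and *Col7a1* (1.84), the anchoring fibril collagen gene, rose as well, and *Col25a1*, which encodes a neuronal membrane collagen, fell by 1.13 on the log2 scale. Without DOCA-CRE replicate 1, *Col4a1*, *Col4a2*, *Col4a5*, *Col5a1*, *Col6a6* and *Col25a1* no longer passed, and without Baseline-CRE replicate 4 *Col4a1*, *Col4a2*, *Col4a6*, *Col5a1*, *Col6a6* and *Col25a1* did not. *Col4a1*, *Col6a6* and *Col25a1* were also lost without Baseline-CRE replicate 1 or 3, *Col5a1* without DOCA-CRE replicate 2 or Baseline-CRE replicate 2, *Col25a1* without DOCA-CRE replicate 2, and *Col6a6* without the library labelled DOCA-CRE replicate 3 (adjusted p = 0.0502 to 0.129 over these). Summed collagen levels were 780.2, 515.1 and 552.9 CPM in DOCA-CRE and 403.2 to 441.8 CPM in Baseline-CRE libraries. Of 12 fibroblast and meningeal markers, 0 passed, with summed levels of 118.7 to 155.8 CPM in DOCA-CRE and 110.3 to 145.9 CPM in Baseline-CRE libraries. Of 20 endothelial markers, 2 rose (10%, where 2.69% of all genes did): *Egfl7* (0.52) and *Mfsd2a*, a lipid transporter of the blood-brain barrier (0.89). Both were lost without DOCA-CRE replicate 1 or 2 or Baseline-CRE replicate 3 or 4, *Egfl7* also without Baseline-CRE replicate 2 and *Mfsd2a* without Baseline-CRE replicate 1 (adjusted p = 0.0533 to 0.145). The summed level of the 20 markers was 757.0 to 870.9 CPM in DOCA-CRE and 633.4 to 792.8 CPM in Baseline-CRE libraries, and the part of endothelial content in the collagen result was not tested. In punches, more cells of a type and more RNA per cell cannot be told apart.

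**Figure D4:**
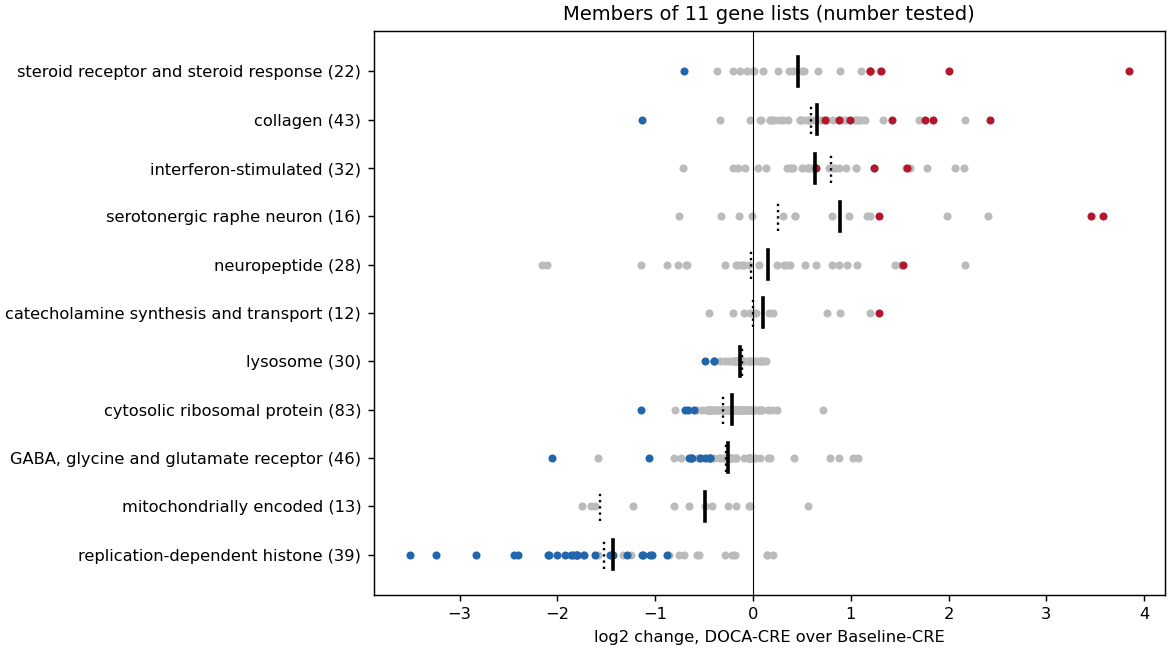
Log2 change in DOCA-CRE over Baseline-CRE libraries for each tested member of 11 gene lists, with the number tested in parentheses. Red and blue points are members that rose or fell at an adjusted p of at most 0.05, gray points did not pass, solid bars are medians with no library left out, and dotted bars are medians without the library labelled DOCA-CRE replicate 3. The histone median is -1.43, and the mitochondrial and serotonergic medians move most when that library is left out.

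Among glial genes, *Mobp*, a myelin protein gene, had 3233, 3632 and 5493 CPM in DOCA-CRE libraries, against 1616, 2277, 1870 and 1848 CPM in Baseline-CRE libraries (log2 change 1.11, SE 0.19, adjusted p = 0.00702) and passed under all 28 alternatives. *Hapln2*, a matrix gene of nodes of Ranvier, had 131, 96 and 77.1 CPM in DOCA-CRE and 47.3, 74.3, 46.7 and 50.8 CPM in Baseline-CRE libraries (log2 change 0.89, adjusted p = 0.0249). *Opalin* and *Tspan2*, also expressed in oligodendrocytes, fell by 0.94 and 0.55 on the log2 scale (adjusted p = 0.0185 and 0.0123). Of 20 myelin and oligodendrocyte genes, 2 thus rose and 2 fell (10% each, where 2.69% of all genes rose and 3.77% fell), with a median of -0.12. *Hapln2* and *Opalin* were lost without DOCA-CRE replicate 1 or Baseline-CRE replicate 4, and *Hapln2* without Baseline-CRE replicate 1 or 3 (adjusted p = 0.0528 to 0.119). Microglial markers (0 of 20) and inhibitory (0 of 10) and excitatory (0 of 8) neuron markers did not pass in either direction. Summed microglial and inhibitory levels overlapped between groups. The excitatory sum did not, at 156.9, 118.1 and 171 CPM in DOCA-CRE and 196 to 329.1 CPM in Baseline-CRE libraries (median log2 change -0.18). With a sex term and without the library labelled DOCA-CRE replicate 3, 3 excitatory markers fell, where 986 of all 14852 genes did. The part of neuron content in the receptor result was not tested.

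The genes with the largest fold among those called higher with separate ranges mostly had few reads or shared sequence with other genes, apart from *Plin4* and *Tph2*. *Duox2*, a thyroid peroxide-generating oxidase gene, had 0.205, 1.54 and 2.09 CPM in DOCA-CRE libraries, against 0, 0.128, 0.0616 and 0 CPM in Baseline-CRE libraries (log2 change 4.51, adjusted p = 0.0159). *Muc5b*, an airway mucin gene, had 0.287, 2.48 and 5.13 CPM in DOCA-CRE and 0.0636, 0.256, 0.185 and 0.156 CPM in Baseline-CRE libraries (log2 change 3.93, adjusted p = 0.0102). *Vmn2r3*, a vomeronasal receptor gene, had 0.492, 0.902 and 2.09 CPM in DOCA-CRE libraries, against 0, 0.0639, 0 and 0.156 CPM in Baseline-CRE libraries (log2 change 4.34, adjusted p = 0.0119). Of the DOCA-CRE libraries, the one labelled replicate 3 was highest and replicate 1 lowest for each, and *Duox2* was lost without Baseline-CRE replicate 4 (adjusted p = 0.0544). *Gm10800*, a predicted gene, had 113, 305 and 726 CPM in DOCA-CRE libraries, against 11.8, 35.8, 28.4 and 29 CPM in Baseline-CRE libraries (log2 change 3.86, SE 0.60, adjusted p = 0.00539). *Gm21738* (4.10), *Gm10719* (3.64), *Gm10722* (3.64) and *Gm10801* (3.58) are also predicted genes, and 36.2% to 74.8% of the 31-base words of these 5 genes occur in other genes, some of them in one another, so that they are not separate observations. Over the 3 DOCA-CRE libraries these genes followed the order of the number of genes detected (26668, 41743 and 42650). Of the 170 genes called higher, 90 were highest in the library labelled DOCA-CRE replicate 3, 60 in DOCA-CRE replicate 1 and 20 in DOCA-CRE replicate 2. The part of that difference between libraries in the calls was not tested. *Ttr*, the transthyretin gene of choroid plexus, had 0.041, 59 and 0.282 CPM in DOCA-CRE and 0.127, 0, 0 and 0.156 CPM in Baseline-CRE libraries, so that its log2 change of 8.09 came from DOCA-CRE replicate 2 alone, and the call was lost without it or without Baseline-CRE replicate 3 or 4 (adjusted p = 0.0582 to 0.655). *Gm10719* was lost without Baseline-CRE replicate 3 or 4 (adjusted p = 0.0552 to 0.0576).

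Less rare genes called higher, named after their values were seen, included *Sspo*, which encodes SCO-spondin, a giant secreted protein of ependyma-derived fibers, with 8.7, 6.99 and 7.56 CPM in DOCA-CRE libraries, against 0.954, 1.28, 1.48 and 1.79 CPM in Baseline-CRE libraries (log2 change 2.50, SE 0.28, adjusted p = 0.000604). *Hif3a*, which encodes a hypoxia-inducible factor alpha subunit, had 19.9, 19.2 and 12.7 CPM in DOCA-CRE and 4.26, 4.86, 2.77 and 3.74 CPM in Baseline-CRE libraries (log2 change 2.14, adjusted p = 0.0114). *Pla2g3*, a secreted phospholipase gene, had 13.8, 22.8 and 13 CPM in DOCA-CRE libraries, against 4.26, 5.05, 5.67 and 4.21 CPM in Baseline-CRE libraries (log2 change 1.78, adjusted p = 0.00247). The groups were separate for each, and the library labelled DOCA-CRE replicate 3 lay with the other DOCA-CRE libraries. These 3 passed under all 28 alternatives. *Akap12*, a kinase scaffold gene, had 785, 1375 and 708 CPM in DOCA-CRE and 564, 318, 519 and 449.6 CPM in Baseline-CRE libraries (log2 change 1.05, adjusted p = 0.0193), with DOCA-CRE replicate 2 well above the rest, and was lost without that library or without Baseline-CRE replicate 4 (adjusted p = 0.06 to 0.0672).

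*Tph2*, *Slc6a4* and *Ddc*, genes of serotonergic neurons, were highest in the library labelled DOCA-CRE replicate 3. *Tph2*, the enzyme of brain serotonin synthesis, had 6.69, 6.8 and 48.9 CPM in DOCA-CRE libraries, against 1.34, 2.11, 2.59 and 1.33 CPM in Baseline-CRE libraries (log2 change 3.46, SE 0.65, adjusted p = 0.00982). Without that library it was still higher, with a smaller change (1.86, adjusted p = 0.012). *Slc6a4*, the serotonin transporter gene, had 3.24, 1.8 and 22.8 CPM in DOCA-CRE and 0, 1.92, 0.801 and 0.234 CPM in Baseline-CRE libraries (log2 change 3.58, adjusted p = 0.0382) and was lost without it (adjusted p = 0.207). *Ddc*, the aromatic amino acid decarboxylase gene of serotonin and catecholamine cells, rose by 1.29 on the log2 scale (adjusted p = 0.0267) and was lost as well (adjusted p = 0.0867). Both were also lost without Baseline-CRE replicate 1, 3 or 4, and *Ddc* without DOCA-CRE replicate 1 (adjusted p = 0.0552 to 0.104). Of 16 serotonergic genes, 3 rose with all libraries (18.8%, where 2.69% of all genes did) and 1 without the library labelled DOCA-CRE replicate 3 (where 4.28% of all genes did). Their summed level was 154.5, 106.8 and 259.3 CPM in DOCA-CRE and 100.1 to 158.6 CPM in Baseline-CRE libraries.

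The C1 enzymes were low in both groups. *Th*, tyrosine hydroxylase, had 4.84, 2.48 and 4.74 CPM in DOCA-CRE libraries, against 4.58, 6.84, 2.09 and 2.81 CPM in Baseline-CRE libraries (log2 change -0.03, adjusted p = 0.971). *Dbh*, dopamine beta-hydroxylase, had 5.58, 9.69 and 6.49 CPM in DOCA-CRE and 7.95, 14.7, 3.82 and 4.37 CPM in Baseline-CRE libraries (log2 change -0.09, adjusted p = 0.919). *Pnmt*, which makes adrenaline and defines C1 cells, was at most 0.508 CPM in any of the 7 libraries. The groups overlapped for all 3, and apart from *Ddc* no member of the 13 C1 genes passed. *Agtr1a*, the angiotensin II type 1a receptor gene, had 0.123, 0.15 and 1.69 CPM in DOCA-CRE libraries, against 0.891, 0.511, 0.924 and 1.48 CPM in Baseline-CRE libraries (log2 change -0.62, adjusted p = 0.664), and without the library labelled DOCA-CRE replicate 3 its log2 change was -2.72 (adjusted p = 0.0411). *Trh* and *Sst*, which encode thyrotropin-releasing hormone and somatostatin, did not differ beyond the spread of the libraries (log2 change 1.07, adjusted p = 0.664, and -0.16, adjusted p = 0.871). *Gal*, which encodes galanin, was the single neuropeptide gene of 28 that rose (3.57%, where 2.69% of all genes did). It had 6.15, 7.67 and 8.69 CPM in DOCA-CRE and 3.88, 2.43, 2.77 and 1.17 CPM in Baseline-CRE libraries (log2 change 1.53, adjusted p = 0.04). The call was lost without any 1 DOCA-CRE library or Baseline-CRE replicate 2, 3 or 4 (adjusted p = 0.066 to 0.108). Cholinergic motor neuron markers all had a positive sign but 0 of 11 passed, and their summed level varied within groups, at 904.5, 2672 and 1033 CPM in DOCA-CRE and 214.9 to 1621 CPM in Baseline-CRE libraries.

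The pathways nearest to PRR were counted by list, beside the 3.77% of all genes that fell. Of 18 V-ATPase genes, *Atp6v1a*, the catalytic subunit gene, fell by 0.40 on the log2 scale (adjusted p = 0.0239), which is 5.56% of the list. Of 30 lysosomal genes, 0 rose and 3 fell (10%): *Scarb2* (-0.40), *Npc1* (-0.39) and *Lamp2* (-0.49). Of 13 renin-angiotensin genes, *Lnpep*, the angiotensin IV receptor gene, fell by 0.46 (adjusted p = 0.0192, 7.69% of the list). Without the library labelled DOCA-CRE replicate 3, 3 V-ATPase genes fell, 2 lysosomal genes fell, and 3 renin-angiotensin genes fell and 1 rose, where 6.39% of all genes fell and 4.28% rose. These calls had small changes and most were lost when single libraries were left out. *Atp6v1a*, *Lnpep*, *Npc1* and *Lamp2* were lost without DOCA-CRE replicate 1 or Baseline-CRE replicate 3 or 4, *Lnpep* and *Lamp2* without DOCA-CRE replicate 2, *Atp6v1a*, *Npc1* and *Lamp2* without Baseline-CRE replicate 1, *Npc1* and *Lamp2* without Baseline-CRE replicate 2, and *Npc1* without the library labelled DOCA-CRE replicate 3 (adjusted p = 0.0505 to 0.135).

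Interferon-stimulated genes were called more often without the library labelled DOCA-CRE replicate 3. Of 32, 3 rose with all libraries (*Stat2*, *Oas2* and *Irf7*, 9.38%, median 0.63) and 13 without it (median 0.80), with 0 lower in either. Over all genes, 2.69% rose with all libraries and 4.28% without it. Leaving it out leaves DOCA-CRE libraries of the male pattern only, and with a sex term as well 5 rose. *Stat2*, a transducer of interferon signals, had 43.2, 30.2 and 27.4 CPM in DOCA-CRE libraries, against 25.1, 20, 20.6 and 20.6 CPM in Baseline-CRE libraries (log2 change 0.64, adjusted p = 0.0193). *Isg15*, a ubiquitin-like effector, had 6.77, 1.5 and 1.3 CPM in DOCA-CRE and 1.21, 0.767, 0.739 and 1.01 CPM in Baseline-CRE libraries and did not pass with all libraries (log2 change 1.78, adjusted p = 0.1). DOCA-CRE replicate 1 was the highest library in both. The list's sum was 619.8, 360.5 and 317.1 CPM in DOCA-CRE and 467.5, 227.3, 284.8 and 285.2 CPM in Baseline-CRE libraries, where the groups overlap. *Stat2*, *Oas2* and *Irf7* all missed the threshold without DOCA-CRE replicate 1 or Baseline-CRE replicate 3 or 4, and *Oas2* and *Irf7* without DOCA-CRE replicate 2 or Baseline-CRE replicate 2 (adjusted p = 0.0505 to 0.213).

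Mitochondrially encoded mRNAs depended on the same library. Of 13, 0 passed with all libraries and 9 fell without it (median -0.49 and -1.56), where 6.39% of all genes fell without it. *mt-Nd3*, a subunit gene of complex I, had 6.69, 26.9 and 105 CPM in DOCA-CRE libraries, against 139, 132, 135 and 160 CPM in Baseline-CRE libraries, and the library labelled DOCA-CRE replicate 3 was nearest to the baseline (log2 change -1.62, adjusted p = 0.111, and -3.07, adjusted p = 0.00466, without it). These genes moved with the share of mitochondrial ribosomal RNA, whose part was not tested. Of 81 nuclear genes of oxidative phosphorylation, 0 passed in either direction, with 59 of positive sign. *Egr1*, an immediate early gene of neuronal activity, fell by 1.15 (adjusted p = 0.0216), and the other 19 genes of that kind did not pass. It was 5% of its list, where 3.77% of all genes fell. In the circadian list of 21, *Arntl* rose (0.40) and *Dbp* (-0.61) and *Nr1d2* (-0.45) fell. These were 4.76% and 9.52% of the list, where 2.69% of all genes rose and 3.77% fell. *Egr1* was lost without DOCA-CRE replicate 1 or Baseline-CRE replicate 4, *Dbp* without DOCA-CRE replicate 1 or Baseline-CRE replicate 1 or 2, and *Arntl* and *Nr1d2* without DOCA-CRE replicate 1 or 2 or any 1 Baseline-CRE library (adjusted p = 0.0516 to 0.163).

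The response was set beside that of mice given the control virus, from 4 DOCA-WT and 4 Baseline-WT libraries, which share no library with the comparison. There 218 genes were higher (1.47%) and 105 lower (0.707%), and 814 (5.48%) and 909 (6.12%) at the adjusted p alone. Of the genes called here, 17 higher (10% of 170 and 7.8% of 218) and 34 lower (51.5% of 66 and 32.4% of 105) were called in the same direction with the control virus, and 0 in opposite directions. Of 39 histone genes, 0 rose and 28 fell with the control virus (median -1.49). Their sum was 168.2 to 174.3 CPM in DOCA-WT and 370.2 to 588.4 CPM in Baseline-WT libraries. Mitochondrial ribosomal RNA took 2.42% to 5.84% against 20.7% to 28.8% of counts there, and short noncoding RNA 2.496% to 3.375% against 4.895% to 6.748%. *Plin4* changed by 3.84 with Cre and 3.37 with the control virus, *Nr3c1* by -0.71 and -0.75, and *Hist4h4* by -3.51 and -4.0 on the log2 scale. The difference between the responses did not pass for these 3 (adjusted p = 0.833, 0.916 and 0.613). It did not pass for *Zbtb16* (1.31 and 0.54, adjusted p = 0.217), *Glra3* (-2.06 and -0.34, adjusted p = 0.11) or *Col4a2* (0.99 and 0.14, adjusted p = 0.159) either.

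As the test of the difference itself, the response with Cre minus that with the control virus was higher for 1 gene (0.00673%) and lower for 48 (0.323%), and at the adjusted p alone for 5 (0.0337%) and 71 (0.478%). The higher gene was *Nexn*, which encodes the actin-binding protein nexilin. It had 65.4, 45.5 and 43.8 CPM in DOCA-CRE libraries, against 26.8, 25.9, 30.1 and 27.8 CPM in Baseline-CRE libraries, all DOCA-CRE libraries being above (log2 change 0.90, adjusted p = 0.00628), and its change with the control virus was -0.11 (difference 1.0, SE 0.20, adjusted p = 0.0367). Of the 48 lower genes, 22 were called higher with the control virus and 3 were called with Cre (*Alox8*, *Reln* and *Tunar*). *Celf6*, a splicing factor gene, had 14, 10.5 and 19.5 CPM in DOCA-CRE and 11.4, 14.8, 15.5 and 14.6 CPM in Baseline-CRE libraries, with overlapping groups (0.05, adjusted p = 0.896), against a change of 1.85 with the control virus (difference -1.80, SE 0.27, adjusted p = 0.0196). *Dlk1*, a membrane ligand gene, changed by -0.04 with Cre and 1.88 with the control virus (difference -1.92, adjusted p = 0.0196). *Syt13*, a synaptotagmin gene, changed by -0.66 and 1.02 (difference -1.67, adjusted p = 0.0196). *Reln*, named after its values were seen, changed by -1.15 and 0.72 (difference -1.87, adjusted p = 0.0196). *Htr1a*, a serotonin receptor gene, changed by -0.76 and 1.14 (difference -1.89, adjusted p = 0.0302). The count of 49 was not stable. It was 0 without DOCA-CRE replicate 1 or 2, Baseline-CRE replicate 3 or 4, Baseline-WT replicate 1 or 3, or DOCA-WT replicate 2 or 3, was 16 without Baseline-CRE replicate 2 and 21 without Baseline-WT replicate 2, and was 209 without the library labelled DOCA-CRE replicate 3 (24 higher, 0.162%, and 185 lower, 1.25%), 151 without DOCA-WT replicate 1 and 131 without DOCA-WT replicate 4. In the fit of all libraries 2490 genes had an unadjusted p under 0.05 for the difference.

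**Figure D5:**
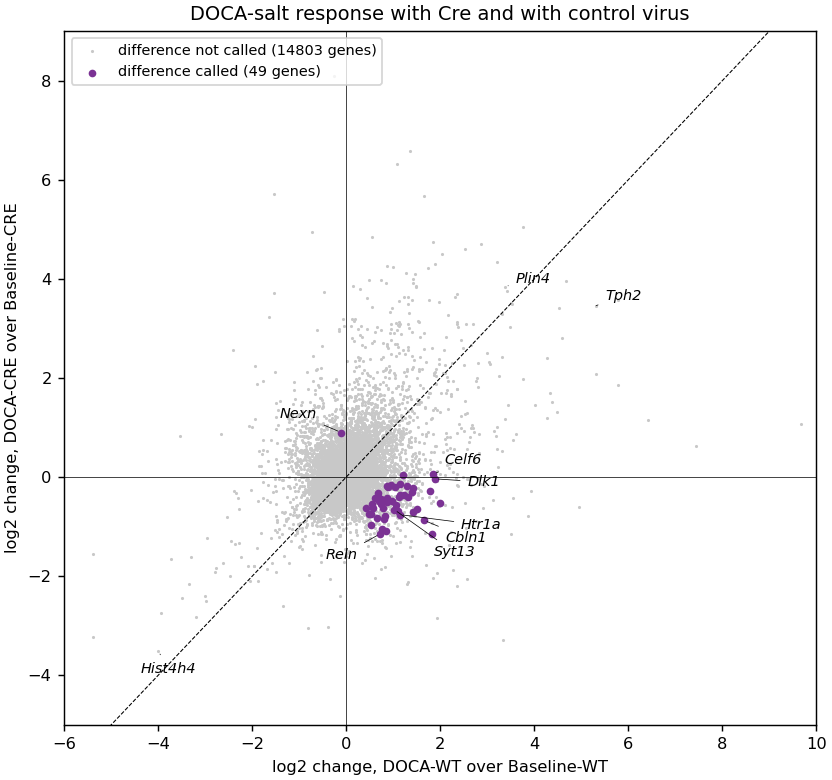
Log2 change on DOCA-salt with Cre (DOCA-CRE over Baseline-CRE, vertical axis) against that with the control virus (DOCA-WT over Baseline-WT, horizontal axis) for each tested gene. Purple points are the 49 genes whose responses differed (2-fold or more, adjusted p no higher than 0.05), and the dashed line marks equal responses. Of the purple points, 48 lie below the line and Nexn above it, while Plin4 and Hist4h4 lie near the line.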

How the data were processed

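RNA from RVLM punches was sequenced by the authors after stranded low-input SMART-seq preparation on a NovaSeq, and reads were aligned to GRCm38.p6 (Gencode vM23) with STAR within MAPR-Seq 3.0. The program that counted reads is not given in the sources used here, nor whether strand was used. The deposited table holds the authors' raw counts per gene, whole numbers without normalization, for 55421 genes and all 15 libraries. The other deposited tables hold the authors' own comparisons (fold changes, FDR) with RPKM values, and were not used. Depth ran from 20310085 to 30504796 counts in the 7 libraries compared. This depth limits precision for rare genes, and p-values measure the spread between libraries.

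Libraries were grouped by their labels. The study's methods give the sizes of the DOCA-salt groups the other way round from the labels, and the labels were followed. The filter kept 14852 of 21926 protein-coding genes, those exceeding 1 CPM in any library. Their counts were normalized by TMM and tested with the quasi-likelihood method of edgeR 4.0.16 (R 4.3.3), using every library and a coefficient for each of the groups. Calls needed a 2-fold change and a Benjamini-Hochberg adjusted p no higher than 0.05. For protein-coding genes, list members and verbs such as rose or fell rest on that p alone. CPM are over tested genes with TMM factors. The common biological coefficient of variation was 0.192. Noncoding genes come from a fit of all biotypes, and their counts and verbs rest on both the 2-fold change and the adjusted p. Shares of counts had an exact permutation test. The comparison, the 44 gene lists and the naming rule were chosen with earlier results of these data known. The rule names the 10 largest changes per direction among called genes with separate ranges and at least 1 CPM, up to 4 members of each list with the smallest p and any member described, 12 set genes, and 5 per direction of the response difference and of genes called only without the library labelled DOCA-CRE replicate 3. Some genes under the rule are not reported here. The fit was tested on simulated data. No 2 replicates were alike within counting noise (the smallest chi-square over its degrees of freedom was 6.23). Replicate numbers did not pair libraries. Gencode vM21 (GRCm38) gave positions for 99.9% of tested genes. Alternatives were the likelihood ratio test of edgeR, voom of limma 3.58.1 with quality weights, DESeq2 1.42.0, other scaling and filters, only the 7 libraries, a replicate block, a sex term, and leaving out each library.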

Additional observations from a re-analysis of the deposited data

Results flagged for a closer look

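Among 4 libraries a value was marked when its gap to the nearest of the others was above Dixon's 95% critical value for the range. Of 245 sets of 4 Baseline-CRE values examined (named genes and shares of counts), 20 had such a library, where chance marks about 1 in 20. Baseline-CRE replicate 2 stood apart in 11. It was lowest for *Celf3* (9.58 CPM), *Hoxd4* (0.128 CPM), *Opalin* (37.1 CPM) and *Reln* (70.2 CPM). It was highest for *Celf2* (70.2 CPM), *Ddc* (9.65 CPM), *Grm3* (93.8 CPM), *Hapln2* (74.3 CPM), *Lmx1b* (8.50 CPM), *Slc18a2* (11.5 CPM) and *Trh* (2.94 CPM). Baseline-CRE replicate 1 was highest for *H2-Ab1* (13.4 CPM), *Nlrc5* (14.4 CPM) and *Stat2* (25.1 CPM). Baseline-CRE replicate 4 was lowest for *Atp6v1g1* (52.1 CPM) and the share of protein-coding counts (63.1%), and highest for *Htr2c* (150 CPM), *Htr4* (5.93 CPM) and *Neurod1* (3.98 CPM). Baseline-CRE replicate 3 was lowest for *Qdpr* (288 CPM).

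The DOCA-salt response with Cre differed from that with the control virus, by the test of the difference, for 49 genes. On the log2 scale the difference was -2.97 for *Tfap2b*, -2.52 for *Cbln1*, -1.92 for *Dlk1*, -1.89 for *Htr1a*, -1.87 for *Reln*, -1.80 for *Celf6*, -1.67 for *Syt13*, -1.54 for *Doc2b*, -1.30 for *Celf4* and 1.0 for *Nexn*. *Tfap2b* and *Doc2b* were named after their values were seen.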

How the results depend on the processing

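The counts of 170 genes higher, 66 lower and 49 with a differing response moved with the method. Genes higher were 269 with DESeq2, 328 with the likelihood ratio test, 87 with limma voom, 305 with all biotypes, 25 with only the 7 libraries and 399 with the adjusted p alone. Genes lower were 94 with DESeq2, 91 with the likelihood ratio test, 33 with voom, 283 with all biotypes, 21 with only the 7 libraries, 560 with the adjusted p alone and 246 with a sex term and without the library labelled DOCA-CRE replicate 3. Differing responses were 273 with DESeq2, 270 with the likelihood ratio test, 147 with total counts only, 129 without a filter, 76 with the adjusted p alone and 408 with a sex term and without that library. With the replicate block the counts were 128, 54 and 55, but the numbers share only a number: 0 of 3 same-numbered pairs of DOCA-CRE and Baseline-CRE libraries had a correlation above 0.1 (mean -0.23). Leaving out single libraries gave 43 to 169, 29 to 177 and 0 to 209 genes, 309 to 710 for the 588 of all biotypes, and 14 to 36 lists with a passing member, where all libraries gave 31. The last 2 ranges were added after the data were seen. Differences in share ran from -18.2 to -10.3 points for mitochondrial rRNA, -3.27 to -2.63 for short noncoding RNA, 13.7 to 21.6 for protein-coding genes and -0.00926 to -0.00771 for histones, where exact permutation p was 0.0667 or 0.1, the smallest possible with 6 libraries. Of 100 named genes that passed, 19 passed under all 28 alternatives, 72 were lost with only the 7 libraries, 57 without Baseline-CRE replicate 4, 54 without DOCA-CRE replicate 1 and 10 without the library labelled DOCA-CRE replicate 3, and 0 reversed. Causes were not tested.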

Other observations

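Some groups outside the comparisons above differed between single libraries of the same group. Hox genes, which mark position along the hindbrain and cord, had a summed level of 37.1, 34.6 and 62.8 CPM in DOCA-CRE and 90.5, 24.8, 79.6 and 120 CPM in Baseline-CRE libraries, with 0 of 19 past the adjusted p and a median log2 change of -0.61. Cerebellar neuron markers summed to 268.8, 85.7 and 259.8 CPM in DOCA-CRE and 170.8, 402.2, 175.3 and 240.9 CPM in Baseline-CRE libraries, and 11 of 12 had a negative sign with 1 past the adjusted p. Red blood cell genes summed to 36.1, 23.4 and 26.1 CPM in DOCA-CRE and 41.6 to 59.1 CPM in Baseline-CRE libraries without overlap, with *Hbb-bs* (-1.35) and *Hba-a2* (-0.87) lower on the log2 scale. Both calls were lost without DOCA-CRE replicate 1 or Baseline-CRE replicate 1, 3 or 4, *Hbb-bs* also without DOCA-CRE replicate 2 and *Hba-a2* without the library labelled DOCA-CRE replicate 3 (adjusted p = 0.0532 to 0.146), and hemoglobin copies share sequence.

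*Rpl36al*, a ribosomal protein gene named after its values were seen, had 43.9, 32.1 and 49.9 CPM in DOCA-CRE libraries, against 45.5, 37.4, 551 and 737 CPM in Baseline-CRE libraries. Only Baseline-CRE replicates 3 and 4 were high. Both had the male pattern, as did DOCA-CRE replicates 1 and 2. The call (log2 change -3.03, adjusted p = 0.0353) was lost without Baseline-CRE replicate 3 or 4 or without any 1 DOCA-CRE library (adjusted p = 0.0515 to 0.107). It was also lost with a sex term.

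*Tac1*, the substance P gene, had 1.39, 1.84 and 5.02 CPM in DOCA-CRE libraries, against 9.29, 3.71, 15 and 20 CPM in Baseline-CRE libraries, with overlapping groups and no call with all libraries (log2 change -2.16, adjusted p = 0.0615). Without the library labelled DOCA-CRE replicate 3 it was lower by 2.88 on the log2 scale (adjusted p = 0.0314).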
